A study of Mus musculus with 8 samples.

Results

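The anaphase-promoting complex (APC/C) is a ubiquitin ligase of the cell cycle, and the RNA of 10 of its subunits was followed here in 4T1.13 mammary tumours whose cells carried a miR-21 knockdown or a control vector. The 10 genes were Anapc1, Anapc2, Anapc4, Anapc5, Anapc7, Anapc10, Anapc11, Anapc13, Cdc16 and Cdc23, out of 27179 genes listed in the count table. They were chosen by name with the contrast between the groups already known, so their differences are given as a description with errors and without p-values. Where their calls past the threshold are printed, these are a description too and are not read as tests. The 4T1.13 line is a mouse mammary carcinoma that metastasises spontaneously. Whole primary tumours were taken from BALB/c mice, which are immunocompetent, after injection of 100000 cells into the mammary fat pad. The 4 control tumours (4T1.13-VC) grew from cells with the pEZX-AM03 lentiviral vector that expresses a scrambled RNA. The 4 knockdown tumours (4T1.13-miR-21-KD) grew from cells in which the H1 promoter of the same vector drives an RNA that binds and holds mature miR-21. Both lines carry the mCherry reporter and hygromycin B resistance, and each was a pool of expanded clones. The host cells of every tumour keep their own miR-21. The labels give day 14 for all 8 tumours, whereas the methods of the study name an earlier day, close to the start of regression of the miR-21-KD tumours. The labels give no age, and by the methods of the study the mice were young adult females.

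APC/C attaches ubiquitin to mitotic proteins and so marks them for the proteasome. With the co-activator Cdc20 it removes securin and B-type cyclins at the metaphase to anaphase transition, and with Cdh1, the product of Fzr1, it keeps cyclins low in G1. The cullin-like subunit Anapc2 and the RING subunit Anapc11 form the catalytic core, and Anapc10 helps to bind substrates. Anapc1, Anapc4 and Anapc5 make the platform, while Cdc27, Cdc16, Cdc23 and Anapc7 are built from tetratricopeptide repeats (TPR) and form an arch that receives the co-activator. Anapc13, Cdc26 and Anapc16 are small proteins that bind the arch, and Anapc15 takes part in the release of the spindle checkpoint complex. Subunit genes are known to be expressed in cycling and resting cells alike, whereas many substrates are transcribed mainly late in the cell cycle.

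Each library held between 12134849 and 13592695 counts. Levels are in CPM, the usual unit of counts relative to library size, with libraries scaled to each other, and a count of 0 allows a level of up to 0.221 to 0.245 CPM, a limit that covers counting error only. Of 14382 genes tested, 39.1% passed an adjusted p of 0.05, 2800 with lower and 2826 with higher levels in the knockdown group. The row of Mir21a, the precursor of miR-21, held 0 counts in all 8 tumours, so these libraries do not check the knockdown. Along the first principal component, miR-21-KD tumour 2 lay nearest to the VC tumours. Epithelial markers were present in both groups, in differing directions that are given with the other markers, and they do not separate carcinoma cells from host epithelium. Leukocyte, fibroblast and adipocyte markers were also counted in all tumours, so that the RNA is a mixture of tumour and host cells. In such bulk RNA, fewer cells of a type and less RNA per cell cannot be told apart.

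All 10 subunits passed the filter on low counts, with 147 counts or more in each tumour, and all 10 had a mean that was lower in miR-21-KD than in VC tumours. The median log2 fold change was -0.31, with a range from -0.63 for Anapc5 to -0.18 for Anapc13, against a median of -0.01 over all tested genes. Below 0 lay 51.2% of all tested genes. Of the 10 subunits, 6 passed the threshold on the lower side, as did 19.5% of all tested genes, and in 6 the groups did not overlap, as in 18.9% of all tested genes. The genes were chosen with these differences known, so nothing is read from the counts. Without VC tumour 2, VC tumour 3 or miR-21-KD tumour 4, the 6 became 3, namely Anapc2, Anapc5 and Cdc16, which passed in every fit. In these fits the share of all tested genes that passed on the lower side was 10.8%, 10.2% and 11.1%. Summed over the 10 genes, VC tumours held 1080 to 1198 CPM and miR-21-KD tumours 762 to 983 CPM.

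**Figure D1:**
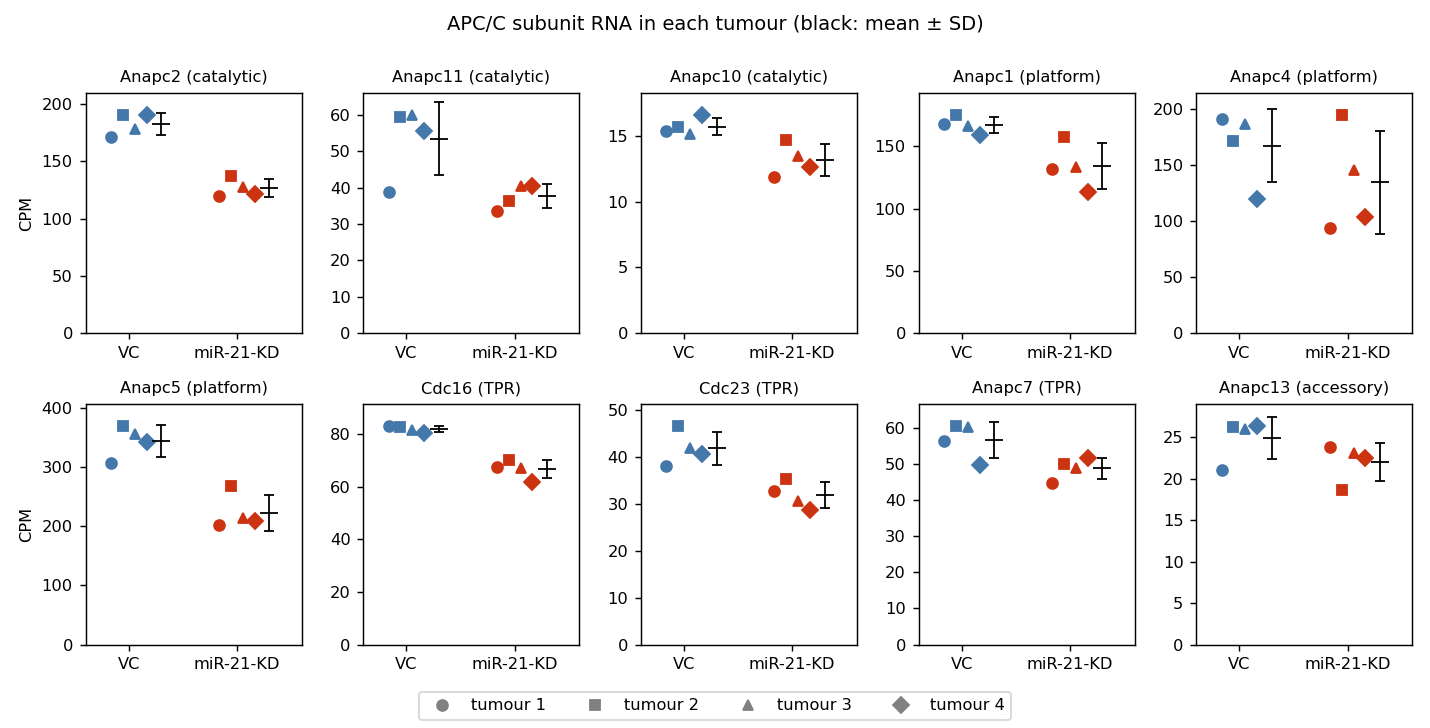
CPM (vertical axes, from 0) of each of the 10 subunits in the 4 VC tumours (blue) and the 4 miR-21-KD tumours (red), with marker shapes for the tumour numbers and bars for the mean ± SD of each group. The groups are apart in Anapc2, Anapc10, Anapc1, Anapc5, Cdc16 and Cdc23, and miR-21-KD tumour 2 stands at the top of all 8 tumours in Anapc4.

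In the catalytic core, Anapc2 (Entrez 99152, chr2:25272466-25285916 in GRCm38) had the clearest separation. Its level was 171, 191, 178 and 190 CPM in VC tumours 1 to 4 and 120, 137, 128 and 121 CPM in miR-21-KD tumours 1 to 4. The lowest VC tumour thus stood above the highest miR-21-KD tumour, and the mean went from 182 ± 9.5 CPM to 126 ± 7.9 CPM (SD, n = 4 each). The log2 fold change was -0.53 (SE 0.08), so the mean in miR-21-KD tumours was 69.3% of that in VC tumours. Anapc2 is the subunit that carries the cullin fold and holds the RING protein.

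Anapc11 (Entrez 66156, chr11:120598421-120608198), the RING subunit that contacts the ubiquitin-conjugating enzymes, was lower by a like amount but with more spread. The VC tumours held 38.7, 59.5, 60.0 and 55.4 CPM and the miR-21-KD tumours 33.6, 36.4, 40.4 and 40.5 CPM. VC tumour 1 lay among the miR-21-KD tumours, and the other VC tumours stood above all of them. The log2 fold change was -0.50 (SE 0.15) and, over the fits that left out 1 tumour each, it lay between -0.63 and -0.45.

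Anapc10 (Entrez 68999, chr8:79711736-79777321), which helps to hold degron motifs of substrates, had the lowest level per kb of exon of the 10. VC tumours held 15.3, 15.6, 15.1 and 16.6 CPM and miR-21-KD tumours 11.9, 14.7, 13.5 and 12.6 CPM. The groups did not overlap, by a gap between VC tumour 3 and miR-21-KD tumour 2. For Anapc10 the log2 fold change was -0.25 (SE 0.11).

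Among the platform subunits, Anapc5 (Entrez 59008, chr5:122787459-122822339) had the largest difference of the 10. The VC tumours held 307, 369, 356 and 342 CPM and the miR-21-KD tumours 201, 267, 213 and 208 CPM. Here, too, miR-21-KD tumour 2 was the highest of its group, yet it remained under VC tumour 1. The mean was 343 ± 26.7 CPM in VC tumours and 222 ± 30.3 CPM in miR-21-KD tumours, and the log2 fold change was -0.63 (SE 0.11).

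Anapc1 (Entrez 17222, chr2:128610083-128687406), the largest subunit and the scaffold that joins the platform to the arch, came next. VC tumours held 168, 175, 166 and 159 CPM and miR-21-KD tumours 132, 158, 134 and 114 CPM. The groups were parted by little, since miR-21-KD tumour 2 nearly reached VC tumour 4. Its log2 fold change was -0.32 (SE 0.10), with the spread wider in miR-21-KD tumours (SD 18.2 CPM) than in VC tumours (SD 6.67 CPM).

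Anapc4 (Entrez 52206, chr5:52834135-52866734) binds Anapc5 in the platform and was the most uneven subunit. Its level was 191, 172, 187 and 120 CPM in VC tumours and 94.1, 195, 146 and 104 CPM in miR-21-KD tumours. The highest tumour of all 8 was miR-21-KD tumour 2, while VC tumour 4 lay among the miR-21-KD tumours, so the groups overlapped broadly. Its log2 fold change of -0.31 had an SE of 0.24, and it went to -0.55 without miR-21-KD tumour 2 and to -0.17 at the other end of the fits without 1 tumour. Its difference was little larger than its SE.

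Of the TPR subunits, Cdc16 (Entrez 69957, chr8:13757649-13781951) was the most even of the 10 across VC tumours, with a coefficient of variation of 1.54%. The VC tumours held 83.0, 82.8, 81.4 and 80.4 CPM and the miR-21-KD tumours 67.7, 70.0, 67.2 and 61.8 CPM. Every miR-21-KD tumour was below every VC tumour. At -0.30 (SE 0.07), its log2 fold change was small, and it stayed between -0.33 and -0.25 in every fit.

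Cdc23 (Entrez 52563), is another TPR subunit of the arch. It stood at 38.1, 46.7, 42.1 and 40.7 CPM in VC tumours and at 32.8, 35.3, 30.8 and 28.8 CPM in miR-21-KD tumours. No miR-21-KD tumour reached the lowest VC tumour. Its log2 fold change was -0.39 (SE 0.10). Cdc23 shares 1271 exon bases with Kif20a, a mitotic kinesin gene on the opposite strand, whose mean went from 84.8 to 36.2 CPM (log2 fold change -1.23, SE 0.27, adjusted p = 0.0123). Whether the counting used strand is not given in the sources used here, so reads of Cdc23 and Kif20a cannot be told apart in that stretch.

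Anapc7 (Entrez 56317, chr5:122422444-122444912) completes the TPR arch in vertebrates. VC tumours held 56.4, 60.6, 60.3 and 49.7 CPM and miR-21-KD tumours 44.7, 50.1, 48.9 and 51.6 CPM. VC tumour 4 lay below miR-21-KD tumours 2 and 4, so the groups overlapped. For Anapc7 the log2 fold change was -0.22 (SE 0.09).

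Anapc13 (Entrez 69010, chr9:102626296-102634244), a small protein that stabilises the arch, had the smallest difference. It was at 21.0, 26.2, 25.9 and 26.3 CPM in VC tumours and at 23.8, 18.6, 23.1 and 22.5 CPM in miR-21-KD tumours. VC tumour 1 lay apart from the other VC tumours and below 3 of the 4 miR-21-KD tumours. At -0.18 (SE 0.12), its log2 fold change was close to its error, and it was -0.11 without miR-21-KD tumour 2 and -0.25 without VC tumour 1. In this gene miR-21-KD tumour 2 was the lowest tumour, the reverse of most subunits. Anapc13 shares 239 exon bases with Cep63 on the opposite strand, and Cep63 averaged 19.9 CPM in the control and 21.5 CPM in the knockdown group (adjusted p = 0.418).

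By role, the median log2 fold change was -0.50 for the 3 catalytic subunits, -0.32 for the 3 platform subunits and -0.30 for the 3 TPR subunits. Coefficients of variation ran from 1.54% (Cdc16) to 19.5% (Anapc4) among VC tumours and from 5.19% (Cdc16) to 34.1% (Anapc4) among miR-21-KD tumours. Of the 6 subunits past the threshold, Cdc23 was no longer past it without VC tumour 2, VC tumour 3 or miR-21-KD tumour 4, and Anapc11 without these or miR-21-KD tumour 1 or 3. Anapc1 lost the threshold without any 1 of 6 tumours, the exceptions being VC tumour 4 and miR-21-KD tumour 2, and also with the filter of 10 counts in each tumour (log2 fold change -0.27). Anapc7 reached it without VC tumour 4, whereas Anapc4, Anapc10 and Anapc13 were not past it in any fit.

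The miR-21-KD tumours were not alike in these genes. Tumour 2 was the highest of its group in 7 of the 10 subunits, tumour 1 the lowest in 6 and tumour 4 the lowest in 3. The mean log2 CPM of the 10 subunits was 5.80, 6.03, 5.93 and 5.82 in miR-21-KD tumours 1 to 4 and 6.18, 6.34, 6.31 and 6.21 in VC tumours 1 to 4. Thus miR-21-KD tumour 2 was the nearest to the VC tumours and still lay below the lowest of them. Without it the median log2 fold change of the 10 went from -0.31 to -0.43. The same tumour was the highest of its group in 34.2% of all tested genes and in 73.9% of the genes that passed the threshold on the lower side, so the pattern was shared with other genes of that side.

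**Figure D2:**
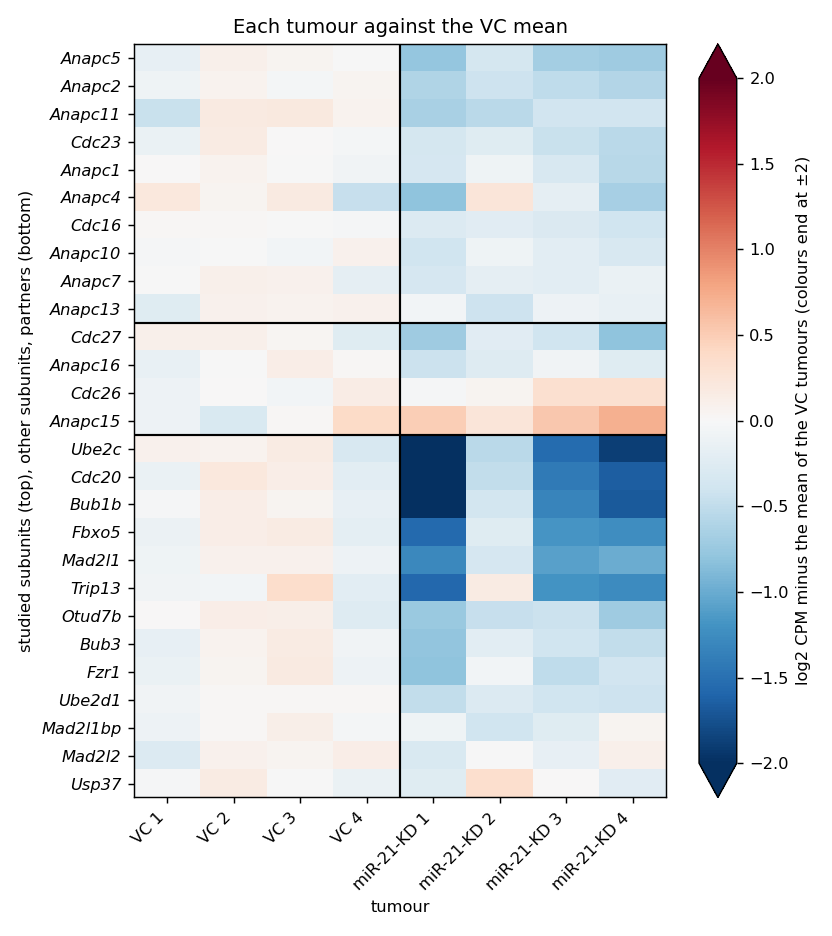
Difference of each tumour's log2 CPM from the mean of the 4 VC tumours (colour, with the scale ending at -2 and 2) for the 10 subunits, the 4 other subunits and the 13 tested partners, with tumours as columns. The 10 subunits are pale blue in most miR-21-KD tumours, Anapc15 is red in the same tumours, and Ube2c, Cdc20 and Bub1b are dark blue in miR-21-KD tumours 1, 3 and 4.

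After the group means were removed, the 10 subunits varied together only in part. Over the 8 tumours, the median Pearson correlation of the 45 pairs of subunits was 0.37, and 33 pairs were above 0. Anapc1 and Anapc5 had the highest medians with the other 9 subunits, at 0.61 and 0.60. Anapc13 stood apart, with a median of -0.25. These correlations describe 8 points that share libraries, with no test.

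The 5 genes outside the list whose residual pattern was closest to the mean of the 10 subunits were Kansl3 (r = 0.990), Arv1 (0.988), Fntb (0.986), Tctn2 (0.984) and Pdss2 (0.979), over 8 tumours. Kansl3 encodes a subunit of a histone acetyltransferase complex, and Fntb the beta subunit of protein farnesyltransferase. The measure uses deviations from the group means, so the difference between groups does not enter it directly. It is still tied to that difference, since miR-21-KD tumour 2 was the highest of its group in 73.9% of the genes called lower and in 34.2% of all tested genes. The signs of the fold changes of genes picked this way are therefore no independent support. The log2 fold changes of the 5 were all below 0, at -0.19 (SE 0.10, adjusted p = 0.156) for Kansl3, -0.27 for Arv1, -0.56 for Pdss2, -0.66 for Fntb and -1.29 (SE 0.15, adjusted p = 0.00501) for Tctn2. The median correlation of the mean of the subunits with the 14372 other tested genes was 0.01, with a range from -0.993 to 0.990, so correlations as strong were found at the opposite sign.

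The other 4 subunits of the complex did not share one direction. Cdc27, the TPR subunit that binds the tail of the co-activators, fell. Its level was 134, 135, 129 and 106 CPM in VC tumours and 77.0, 107, 95.2 and 71.9 CPM in miR-21-KD tumours, so that miR-21-KD tumour 2 just passed VC tumour 4. This gave Cdc27 a log2 fold change of -0.52 (SE 0.14, adjusted p = 0.0224). The call was lost, with an adjusted p of up to 0.0610, without VC tumour 1, 2 or 3 or without miR-21-KD tumour 1 or 4.

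Anapc15 was higher in miR-21-KD tumours without passing the threshold. The VC tumours held 9.44, 8.22, 10.2 and 13.2 CPM and the miR-21-KD tumours 14.2, 12.0, 14.8 and 16.5 CPM, with VC tumour 4 inside the range of the knockdown group. The log2 fold change was 0.48 (SE 0.18, adjusted p = 0.0558), and with the replicate block the adjusted p was 0.0185. It also passed with DESeq2, limma-voom, upper-quartile scaling and the stricter filter, without VC tumour 4, and without miR-21-KD tumour 2, and the adjusted p lay between 0.0185 and 0.143 over all alternatives. Anapc15 shares 1981 exon bases with Tomt on the opposite strand, which averaged 1.41 CPM in the control and 1.53 CPM in the knockdown group (adjusted p = 0.774), and a pseudogene copy (Anapc15-ps) exists, so its value is uncertain.

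Cdc26 and Anapc16, the other small subunits, did not pass. Cdc26 had a log2 fold change of 0.17 (SE 0.13, adjusted p = 0.302), and its levels ran from 13.8 to 16.4 CPM in the control and from 14.5 to 18.6 CPM in the knockdown group. Anapc16 had a log2 fold change of -0.25 (SE 0.10, adjusted p = 0.0722) and passed with the replicate block (adjusted p = 0.0275). Over all 14 subunits, 12 log2 fold changes were below 0, where 51.2% of all tested genes were, and 7 genes passed the threshold on the lower side, where 19.5% did.

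Divided by exon length, the subunits spanned a wide range of levels within one complex. In VC tumours the order of CPM per kb of exon was Anapc5, Anapc2, Anapc4, Cdc16, Cdc27, Anapc7, Anapc16, Anapc11, Anapc13, Anapc1, Cdc23, Anapc10, Cdc26 and Anapc15. Anapc5 had 56.2 ± 4.38 CPM per kb and Anapc2 53.0 ± 2.76, and these neighbours overlapped. Both stood clear of Anapc4 (27.6 ± 5.38) and Cdc16 (26.4 ± 0.406), which overlapped each other. The 5 genes from Anapc7 (11.1 ± 0.989) to Anapc1 (10.0 ± 0.399) formed a step in which each neighbour overlapped the next. Cdc23 (4.41 ± 0.377) and Anapc10 (3.24 ± 0.134) each stood apart from their neighbours, and Cdc26 (2.06 ± 0.162) overlapped Anapc15 (1.99 ± 0.415). Lengths are of all annotated exons of a gene joined, so a gene with a long rare exon is placed too low.

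**Figure D3:**
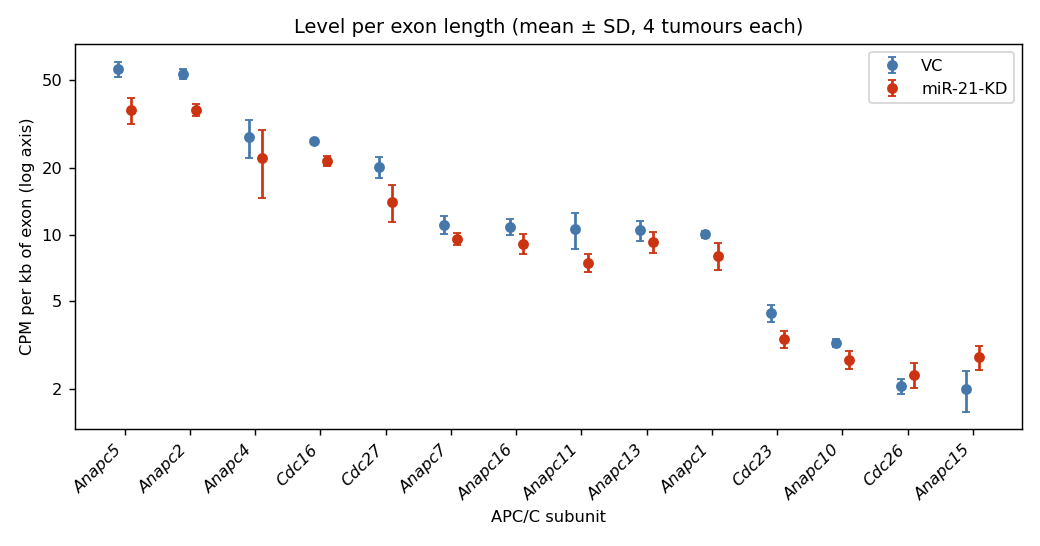
Mean CPM per kb of exon (logarithmic vertical axis) with its SD over the 4 VC (blue) and 4 miR-21-KD (red) tumours for the 14 subunits, in the order of the VC levels. Anapc5 and Anapc2 are near 50 in VC tumours and near 36 in miR-21-KD tumours, whereas Anapc15 and Cdc26 at the right end are the 2 genes whose red point is above the blue one.

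As shares of the summed CPM per kb of the 14 subunits, the make-up of the RNA pool moved a little. The share of Anapc5 averaged 22.6 ± 1.06% in the control and 19.6 ± 1.02% in the knockdown group, and that of Anapc2 21.4 ± 1.25% and 19.9 ± 0.734%. Anapc15 went from 0.809 ± 0.193% to 1.52 ± 0.311% and Cdc26 from 0.834 ± 0.0846% to 1.26 ± 0.206%. Anapc2 took the first place from Anapc5 in miR-21-KD tumours, where both again overlapped. These shares come from the same contrast as the choice of genes and were not tested.

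The partners of the complex, which are co-activators, ubiquitin-conjugating enzymes, checkpoint proteins and deubiquitinases, had a lower median than the subunits. Of 16 listed, 13 passed the filter, and of these 8 fell, where 19.5% of all tested genes did so. All 13 log2 fold changes were below 0, with a median of -0.59. This list and those of substrates, proliferation genes, cullin-RING genes and cell markers were chosen with earlier results of these data known. Their counts and adjusted p-values are thus a description and no independent support. The count of 8 became 5 without VC tumour 3, miR-21-KD tumour 3 or miR-21-KD tumour 4. Ube2s, Fbxo43 and Usp44 were below the filter, with at most 4, 3 and 22 counts in a library.

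Cdc20, the co-activator of mitosis, fell from 109 ± 15.3 CPM to 44.9 ± 22.3 CPM, a log2 fold change of -1.28 (SE 0.30, adjusted p = 0.0137). The VC tumours held 98.6, 125, 119 and 93.6 CPM and the miR-21-KD tumours 27.3, 77.3, 40.5 and 34.6 CPM. No miR-21-KD tumour reached a VC tumour, and tumour 2 was again the nearest. Fzr1, whose product Cdh1 takes over after mitosis, had a log2 fold change of -0.41 (SE 0.15, adjusted p = 0.0582) and passed with the replicate block (adjusted p = 0.0291), DESeq2 (0.0424) and limma-voom (0.0488) and without miR-21-KD tumour 2 (0.00881). Whether the 2 co-activators differ in their response was not tested.

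Ube2c, the enzyme that starts ubiquitin chains on APC/C substrates, had the lowest log2 fold change of the partners at -1.41 (SE 0.34, adjusted p = 0.0145). Its level was 142, 141, 150 and 108 CPM in VC tumours and 28.5, 92.4, 45.9 and 36.5 CPM in miR-21-KD tumours. Ube2d1, a less specific enzyme that can also serve the complex, also fell, with a log2 fold change of -0.40 (SE 0.07, adjusted p = 0.00784). The groups did not overlap in either gene.

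Of the inhibitors, Fbxo5 (Emi1) fell with a log2 fold change of -0.97 (SE 0.27, adjusted p = 0.0230) and the checkpoint genes Bub1b (-1.20, SE 0.32, adjusted p = 0.0194), Mad2l1 (-0.88, SE 0.19, adjusted p = 0.0117) and Bub3 (-0.47, SE 0.13, adjusted p = 0.0234) did as well. Mad2l1 passed in every fit. The calls of Bub1b, Bub3 and Fbxo5 were lost without VC tumour 3, miR-21-KD tumour 3 or miR-21-KD tumour 4, those of Bub3 and Fbxo5 also without VC tumour 2, and that of Fbxo5 also without miR-21-KD tumour 1. Otud7b, a deubiquitinase that opposes the complex, fell with a log2 fold change of -0.59 (SE 0.12, adjusted p = 0.00908). Trip13, which dismantles the checkpoint complex, had a log2 fold change of -0.80 (SE 0.37, adjusted p = 0.109), and it passed with limma-voom (adjusted p = 0.0428) and without miR-21-KD tumour 2 (log2 fold change -1.35). Mad2l2 (-0.09, adjusted p = 0.604), Mad2l1bp (-0.16, adjusted p = 0.333) and Usp37 (-0.01, adjusted p = 0.948) did not pass, and the sign of Usp37 depended on the scaling.

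**Figure D4:**
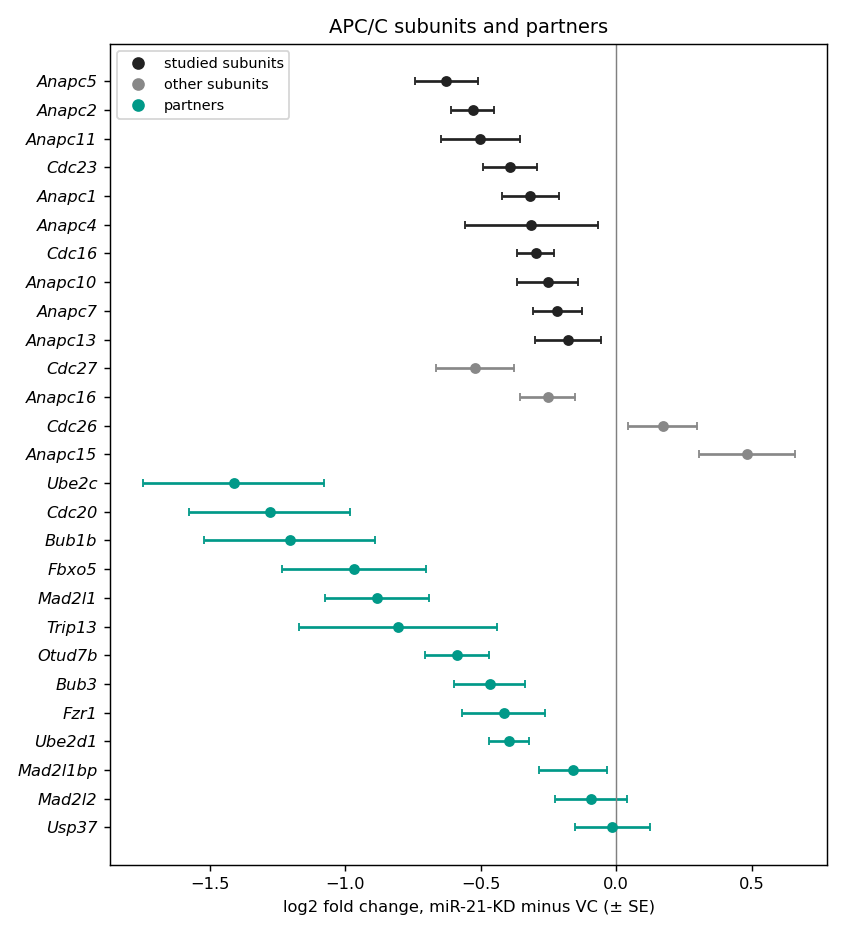
Log2 fold change, miR-21-KD minus VC, with its SE (horizontal axis) for the 10 subunits (black), the 4 other subunits (grey) and the 13 tested partners (green). The 10 subunits lie between -0.63 and -0.18, Anapc15 and Cdc26 lie above 0, and Ube2c, Cdc20 and Bub1b lie below -1.

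The proteins that APC/C destroys were represented by 34 substrate genes, all of which were tested. At the RNA level 30 fell, against 19.5% of all tested genes, in a list that was also chosen with earlier results of these data known. All 34 log2 fold changes were below 0, with a median of -1.27. The count of 30 was 18 without VC tumour 3 or miR-21-KD tumour 4 and 19 without miR-21-KD tumour 3. The smallest adjusted p values were those of the cohesin protector Sgo1 (log2 fold change -1.52, SE 0.28, adjusted p = 0.00734), the mitotic entry factor Cdca3 (-1.32, SE 0.25, adjusted p = 0.00776), the kinase Aurkb (-1.32, SE 0.25, adjusted p = 0.00790) and cyclin Ccnb2 (-1.33, SE 0.26, adjusted p = 0.00876). Anln, an actin-binding protein of cytokinesis, was the most abundant that did not pass (-1.20, SE 0.47, adjusted p = 0.0690), and it passed with the replicate block (adjusted p = 0.0365), DESeq2 (0.0208) and limma-voom (0.0471) and without miR-21-KD tumour 2 (0.0108). In all 34 genes miR-21-KD tumour 2 was the highest of its group.

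The substrates and the mean of the 10 subunits varied together over the tumours, but their order was not the same in the VC group. There tumour 1 was the lowest in the mean log2 CPM of the subunits, whereas tumour 4 was the lowest in 26 of the 34 substrate genes. After removal of the group means, the mean of the subunits had a median correlation of 0.82 with the 34 substrate genes over 8 tumours, and all 34 were above 0. With the 12 proliferation genes the median was 0.84, with the 13 partners 0.82 and with the 23 other cullin-RING genes 0.64, where single genes ran from -0.90 to 0.93. These points share libraries and the values are a description. The 12 proliferation genes all fell, where 19.5% of all tested genes did, with a median log2 fold change of -0.96, and those of smallest adjusted p were Tyms (-0.93, adjusted p = 0.00777), Mcm7 (-1.02, adjusted p = 0.00936), Birc5 (-1.38, adjusted p = 0.00988) and Mcm6 (-1.25, adjusted p = 0.0121). Their count went down to 6 without VC tumour 2, VC tumour 3, miR-21-KD tumour 3 or miR-21-KD tumour 4, and to 7 without miR-21-KD tumour 1. The proliferation list, too, was chosen with earlier results of these data known. The part of proliferation in the levels of the subunits was not tested.

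Genes of other cullin-RING ligases served as a comparison. Among them, 8 cullins and 2 RING genes are relatives of the catalytic core, beside 4 adaptors and 9 genes of neddylation and exchange. Of 23 tested, 7 fell, where 19.5% of all tested genes did, and 1 rose, where 19.6% did. Their median log2 fold change was -0.21, beside -0.31 for the 10 APC/C subunits. Those of smallest adjusted p were the exchange factor Cand2 (log2 fold change -1.49, SE 0.23, adjusted p = 0.00585), the NEDD8-conjugating enzyme Ube2m (-0.45, SE 0.09, adjusted p = 0.00929), Cul4b (-0.45, SE 0.10, adjusted p = 0.0102) and the adaptor Skp1 (-0.43, SE 0.09, adjusted p = 0.0110). Cul9 rose (1.24, SE 0.25, adjusted p = 0.00922), and Ddb1 was the most abundant that did not pass (-0.33, SE 0.12, adjusted p = 0.0591, and 0.0383 with the replicate block), and Ddb1 also passed with DESeq2 and without VC tumour 4 or miR-21-KD tumour 2. Without miR-21-KD tumour 2 the count of 7 was 12. Of the 7 lower calls, 1 was among the 8 cullins (median log2 fold change -0.15) and 1 among the 2 RING genes. Another 1 was among the 4 adaptors and 4 were among the 9 genes of neddylation and exchange. The list as a whole thus held a share of lower calls between those of the background and of the partners. That share is not a value for the relatives of the core alone, and no difference between the lists was tested.

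Markers of other cells moved with the groups, and their counts stand beside the 19.6% of all tested genes that passed on the higher side. Of the 12 leukocyte markers 6 rose, and their summed level was 1482 to 3186 CPM in the control and 2412 to 5223 CPM in the knockdown group. The most abundant, Lyz2, did not pass (log2 fold change 0.63, SE 0.38, adjusted p = 0.212), and its value was 0.38 without miR-21-KD tumour 1 and 0.94 without VC tumour 4. Of the 8 fibroblast markers 6 rose, led in level by Col3a1 (1.42, SE 0.37, adjusted p = 0.0198, lost without VC tumour 3), with sums of 3195 to 8280 CPM and 10752 to 23782 CPM. All 5 adipocyte markers rose, and the most abundant was Fabp4 (1.88, SE 0.42, adjusted p = 0.0124), with sums of 94.9 to 378 CPM and 530 to 1511 CPM. Of the 8 epithelial markers 6 rose, with a median log2 fold change of 1.72 over the list, and Krt18 fell from 1022 to 460 CPM (-1.15, SE 0.37, adjusted p = 0.0374), a call that was lost without VC tumour 1, 2 or 3 or miR-21-KD tumour 3 or 4, and also with no filter on low counts. Their sums were 1308 to 2270 CPM and 1087 to 2066 CPM.

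Among the 5 endothelial markers 1 rose, with sums of 353 to 629 CPM and 515 to 735 CPM. The most abundant, Pecam1, did not pass (0.37, SE 0.18, adjusted p = 0.124), although it did without VC tumour 1 (0.52, adjusted p = 0.0392), and it was at 0.24 without VC tumour 3. Of 5 muscle markers only Mylpf passed the filter, at 1.03 CPM in the control and 1.38 CPM in the knockdown group (adjusted p = 0.340), and Ckm was at 0 counts in 5 of the 8 tumours. The part of these cells in the levels of the 10 subunits was not tested. In the VC group, tumour 4 had the highest leukocyte sum and, by little, the lowest sum of the 10 subunits (1080 CPM, with 1090 CPM in tumour 1). By the mean log2 CPM of the subunits, VC tumour 1 was the lowest instead, at 6.18 beside 6.21 in tumour 4. In the miR-21-KD group tumour 1 had the highest leukocyte and fibroblast sums and the lowest sum of subunits. The highest fibroblast sum among VC tumours was in tumour 1, and the highest adipocyte sum among miR-21-KD tumours in tumour 4.

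**Figure D5:**
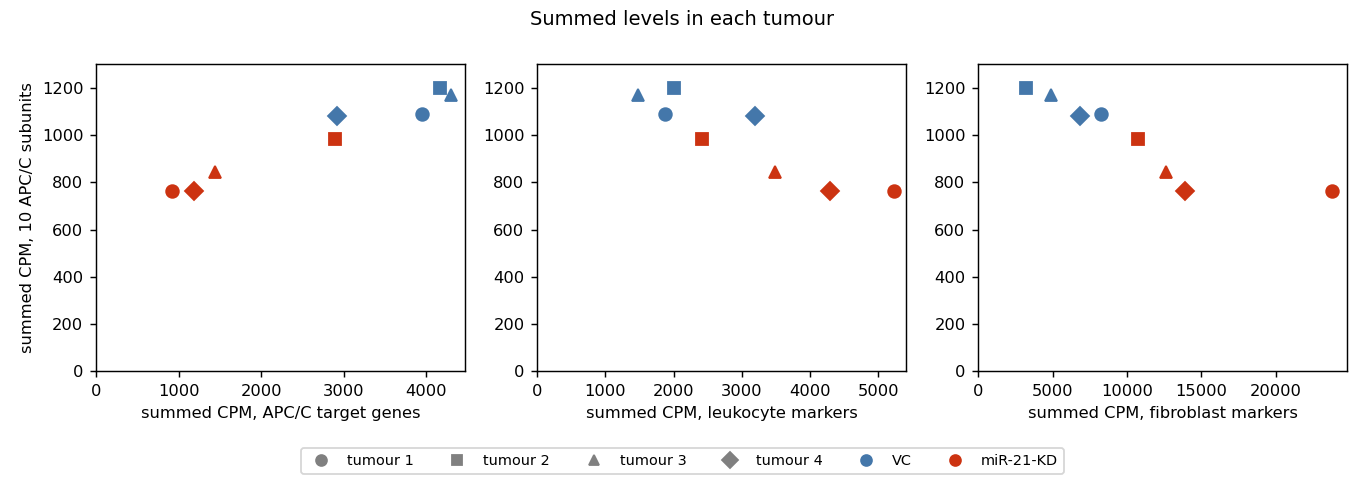
Summed CPM of the 10 subunits (vertical axes, from 0) against the summed CPM of the 34 substrate genes, the 12 leukocyte markers and the 8 fibroblast markers (horizontal axes) in each of the 8 tumours, with shapes for tumour numbers and colours for groups. The 4 miR-21-KD tumours lie at 762 to 983 CPM of subunits, all below the VC tumours at 1080 to 1198 CPM, and their fibroblast sums all lie above those of the VC tumours.

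The promoters of 9 of the 10 subunits were in the RefSeq table (GRCm38.p6), and Cdc23 had no entry. They were searched on both strands, over the 250 bases before the start, for 4 short motifs, of which the first is known from late cell cycle promoters, the next from promoters of G1 and S phase, and the last 2 from many promoters. The cell cycle homology region (TTTGAA) was found in 1 of 9, Anapc7, against 27.6% of 29 substrate promoters and 13.1% of the promoters of all tested genes. E2F letters (TTCCCGC, with C or G allowed at the third and the fourth base) were in 0 of 9, against 27.6% and 15.4%. CCAAT boxes (CCAAT) were in 3 of 9, against 62.1% and 40.1%, and the ETS motif (CCGGAAG) in 4 of 9, against 20.7% and 14.6%. These searches describe letters in a window and say nothing of binding. The starts are those of the promoter table, and for Anapc5 and Cdc16 this start lies inside the span given above for the gene. The stretch of Anapc5 thus lies within the gene, and so do the last few bases of the stretch of Cdc16. The stretches before the starts of Anapc5, the subunit with the largest difference, of Cdc16, the most even one, of Anapc7, and of the partner Cdc20 are shown for contrast, 5′ to 3′ on the strand of each gene, with matches in capitals.
Anapc5, chr5:122821343-122821492, minus strand, CCAAT box read on the other strand: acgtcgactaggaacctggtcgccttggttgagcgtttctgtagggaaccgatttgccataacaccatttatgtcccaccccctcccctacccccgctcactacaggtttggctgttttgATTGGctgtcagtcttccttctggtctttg
Cdc16, chr8:13757506-13757655, plus strand, ETS: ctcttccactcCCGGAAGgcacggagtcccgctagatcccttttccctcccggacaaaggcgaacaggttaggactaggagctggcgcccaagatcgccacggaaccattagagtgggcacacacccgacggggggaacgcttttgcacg
Anapc7, chr5:122422294-122422402, plus strand, cell cycle homology region: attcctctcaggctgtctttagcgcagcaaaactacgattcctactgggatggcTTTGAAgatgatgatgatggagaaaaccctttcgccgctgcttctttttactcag
Cdc20, chr4:118437353-118437493, minus strand, ETS, CCAAT box and cell cycle homology region in this order: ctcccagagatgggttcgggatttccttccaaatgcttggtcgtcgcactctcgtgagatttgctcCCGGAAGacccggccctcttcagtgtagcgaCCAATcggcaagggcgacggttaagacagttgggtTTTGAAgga
Anapc5 and Cdc16 thus had 1 of the 4 motifs each in these stretches and Cdc20 had 3.

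The microRNA that was sequestered, miR-21a-5p, lies at chr11:86584120-86584141 on the minus strand in GRCm38.p6 and is shown with its seed, bases 2 to 8, in capitals.
mmu-miR-21a-5p: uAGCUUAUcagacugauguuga
A match to the seed (ATAAGCT) was found in the 3′ UTR of 0 of the 10 subunits, in 1 GENCODE transcript per gene, against 7.76% of 13347 tested genes. The median 3′ UTR length was 1584 bases for the 10 subunits and 1174 bases for the tested genes. A gene without a match has no such letters in the transcript searched, and nothing further follows for its regulation.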

How the data were processed

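RNA from 4 VC and 4 miR-21-KD tumours was sequenced by the authors, who deposited raw counts of reads per Entrez gene, without normalization, with 1 column per tumour. The submitters' processing notes name Subread, featureCounts, edgeR, limma and mm10 (GRCm38), without versions, and the annotation and strand setting are not given in the sources used here. Symbols were matched for 25275 of 27179 identifiers through RefSeq GRCm38.p6, which also gave positions. Exon lengths and overlaps came from GENCODE M21.

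With edgeR 4.0.16 (R 4.3.3), the filter was filterByExpr (minimum count 10, minimum total 15), scaling was by TMM, and groups were compared with the robust quasi-likelihood test and Benjamini-Hochberg adjustment over 14382 genes at a threshold of 0.05. CPM used the scaled library sizes, and log2 CPM a prior count of 2. Gene lists were written from general knowledge, and the 10 subunits and all lists were chosen with earlier results of these data known. The text names all 10 subunits, the other subunits and the tested partners. From the substrates, cullin-RING and proliferation lists it names up to 4 per direction by smallest adjusted p and the most abundant that did not pass, and from each marker list the most abundant. It also names the 5 genes most correlated with the subunits, and Kif20a, Cep63 and Tomt for their overlap, chosen after their values were seen.

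Alternatives were DESeq2 1.42.0, limma-voom (limma 3.58.1), upper-quartile scaling or no scaling beyond library size, a filter of 10 counts in each tumour or none, a replicate block, and each tumour left out in turn. The labels number the tumours 1 to 4 in both groups, with no reason given. After removal of group means, same-numbered tumours correlated at 0.272, 0.421, 0.175 and 0.376, against a mean of -0.105 and a range of -0.393 to 0.393 for the 12 other pairs, so the numbers were treated as possible pairs. Each tumour came from its own mouse as far as the labels tell, and p-values measure the spread between these tumours. All tumours of a group grew from the same pooled line, so the knockdown and a difference between the clone pools cannot be told apart. Tumours of a group differed by more than sampling noise (chi-square per degree of freedom from 13.3). The procedure was tested on simulated data. The protein table of the study was not used here.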

Additional observations from a re-analysis of the deposited data

Results flagged for a closer look

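Among 54 groups of 4 tumours examined (the subunits and tested partners, in each group), 3 had a tumour far from the rest of its group by Dixon's test, and chance alone flags about 1 in 20 groups. Anapc13 was at 21.0 CPM in VC tumour 1, while the other VC tumours lay between 25.9 and 26.3 CPM. Ube2d1 was at 56.4 CPM in VC tumour 1, against 59.8 to 60.1 CPM in the others, a gap that is small beside the difference between groups. Trip13 was at 19.9 CPM in miR-21-KD tumour 2, against 5.98 to 7.71 CPM in the other miR-21-KD tumours.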

How the results depend on the processing

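The 10 subunits had a log2 fold change below 0 as reported and in all 15 alternatives. Their median lay between -0.43 (without miR-21-KD tumour 2) and -0.25 (without miR-21-KD tumour 4) when 1 tumour was left out, and the number past the threshold between 3 and 7. In the same fits the number of genes past the threshold lay between 2936 and 6840, of partners that fell between 5 and 10, of substrates between 18 and 34, of cullin-RING genes between 5 and 12, of other subunits between 0 and 1, and of proliferation genes between 6 and 12. With the replicate block, 2 of the other subunits fell in place of 1, and among the genes named the block changed the calls of Anapc15, Anapc16, Fzr1, Anln and Ddb1 and no other. Usp37 was above 0 with DESeq2 (0.0038), with a filter of 10 counts in each tumour (0.036), with upper-quartile scaling (0.027), and in the fits without VC tumour 2, miR-21-KD tumour 1 or miR-21-KD tumour 4. Over the fits without 1 tumour it ran from -0.16 (without miR-21-KD tumour 2) to 0.058 (without miR-21-KD tumour 1). Tomt ran from -0.068 (without miR-21-KD tumour 1) to 0.31 (without VC tumour 3). The cause of these shifts was not tested. The largest shift of the median of all genes under another scaling was 0.0439. The 3 partners below the filter on counts were not tested.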
